A study of Mus musculus with 8 samples.

Results

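A set of 9 core genes of the Hedgehog signalling pathway were followed in RNA sequencing of mouse outflow tracts, the segment through which the embryonic heart empties into the great arteries. The genes, Shh, Ptch1, Smo, Gli1, Gli2, Gli3, Hhip, Gas1 and Boc, were chosen by symbol, and each had a row among the 33495 genes of the deposited table. The mutant group held 4 libraries from mice with a conditional knockout of Mef2c in the anterior heart field (AHF), the progenitor population that builds the outflow tract and right ventricle, and the control group held 4 wild-type libraries. All were of CD-1 background, with replicates 1 and 2 of each group on lane 1 and replicates 3 and 4 on lane 2. The sources used here do not give the Cre driver, the Cre status of the controls, the embryonic stage or the number of embryos per library, so the p-values measure the spread between these libraries, which may be technical.

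Hedgehog ligands such as Sonic hedgehog (Shh) bind the membrane receptor Patched-1 (Ptch1), helped by co-receptors such as Gas1 and Boc. Unbound Patched-1 holds back the membrane protein Smoothened (Smo), and once ligand binds, Smoothened signals through the primary cilium to the zinc finger factors Gli1, Gli2 and Gli3. Ptch1, Gli1 and Hhip, which encodes a membrane protein that captures ligand, are themselves switched on by the pathway in many tissues, so their transcripts serve as readouts of it. In the embryo, Shh made by the pharyngeal endoderm beneath the heart acts on second heart field and neural crest cells that form and septate the outflow tract.

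Of the 9 Hedgehog genes followed, the 6 that could be tested were not called different between mutant and wild-type outflow tracts. Of the 9 genes, 6 passed the filter on low counts (Ptch1, Smo, Gli2, Gli3, Gas1 and Boc), and 0 of these 6 had an adjusted p under 0.05 by edgeR's quasi-likelihood test, with 0 also at an unadjusted p under 0.05 and 0 called by DESeq2. Over all 14757 genes tested, 222 were called, or 1.5%, with 83 higher and 139 lower in mutants. At such a rate a count of 0 among 6 is near the background, so no absence of change is read from it. The median log2 fold change of the 6 genes was 0.20, with 5 above 0, beside -0.006 over all tested genes. The feature that stood out was instead a single library: wild-type library 4 held 68 of the 69 Shh reads of the series and the highest levels of Ptch1, Gli1 and Hhip.

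Values by library follow the order of replicate number, 1 to 4, throughout. Libraries held 7138732 to 11012246 counts, so that 3 reads equalled 0.278 to 0.413 CPM (counts scaled to library size and composition). Mef2c reads, summed over the whole gene, gave 120.1 to 153.9 CPM in mutants and 99.1 to 129.8 CPM in wild type (edgeR log2 fold change 0.32, adjusted p = 0.212). The sources used here do not say which part of Mef2c is deleted, so this total cannot check the labels. Mutant library 1 and wild-type library 4 held 3 and 2 reads of the Y-linked gene Ddx3y, and the other 6 libraries held 419 to 596. Cardiomyocyte markers summed to between 11179 and 17879 CPM in the 8 libraries and smooth muscle markers to between 1905 and 2963 CPM, both gene groups of the labelled tissue. Of all marker genes tested, edgeR called Myl7, a cardiomyocyte gene, lower in mutants (log2 fold change -0.97, adjusted p = 0.00309) and Tek, an endothelial receptor gene, higher (0.74, adjusted p = 0.0013).

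Shh, the ligand gene (chromosome 5, 28783355 to 28793641, minus strand, mm9), had 1 read in mutant library 1, 0 reads in mutant libraries 2 to 4, 0 in wild-type libraries 1 to 3, and 68 in wild-type library 4. Wild-type library 4 was therefore at 9.25 CPM and all others were at or below 0.111 CPM. A count of 0 allows a level of up to 0.413 CPM at the shallowest of these depths, and such limits cover counting error only. The ratio of wild-type library 4 to the 7 other libraries pooled was 579.7, with a 95% counting interval of 100.6 to 23230 that compares these libraries and not the genotypes. In log2 CPM with a prior count of 2, mutants differed from wild type by -1.20 (exact two-sided permutation p = 1), and without wild-type library 4 by 0.14 (exact permutation p = 1). With reads only in mutant library 1 and wild-type library 4, which are in different groups, no arrangement of the libraries gives a smaller difference. Both p-values were thus fixed by the ties at 0 reads, and nothing is read from them. In the authors' deposited table Shh ranked 94 of 33495 genes by false discovery rate (1.37e-07), with pooled levels of 0.0114 FPKM in mutants and 0.850 FPKM in controls and a modified log2 ratio of 0. That value was among 579 genes past 0.05 in the authors' deposited table, and the 68 reads behind the control level came from 1 library.

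Ptch1, the Hedgehog receptor and a transcriptional readout of the pathway (chromosome 13, 63609637 to 63666828, minus strand, mm9), was among the abundant members. In the mutants it stood at 109.6, 108.6, 99.6 and 93.9 CPM, and in the wild types at 98.8, 88.5, 110.8 and 259.3 CPM. The 7 libraries other than wild-type library 4 lay within a narrow band in which the groups overlapped, and wild-type library 4 was 2.34 times the highest of them. Mutants averaged 102.9 ± 7.54 CPM (SD, n = 4) and wild type 139.3 ± 80.5 CPM (SD, n = 4), or 99.4 ± 11.2 CPM over wild-type libraries 1 to 3 (SD, n = 3). The edgeR log2 fold change was -0.44 ± 0.34 (SE), with a 95% interval of -1.23 to 0.36 and an adjusted p of 0.713. Without wild-type library 4 it was 0.05, with an interval of -0.17 to 0.27 and an adjusted p of 0.871, the tightest interval among the 6 tested genes. That library was left out because its level was seen to be high, which in part sets this interval.

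Gli1, the activator whose own transcription depends on the pathway (chromosome 10, 126766945 to 126778645, minus strand, mm9), had 6, 23, 11 and 4 reads in the mutants and 8, 1, 6 and 83 in the wild types. Hhip (chromosome 8, 82490014 to 82581905, minus strand, mm9) had 7, 15, 6 and 3 reads in the mutants and 0, 9, 1 and 58 in the wild types. Both were lower in the other 7 libraries, at no more than 23 reads for Gli1 and 15 for Hhip, than in wild-type library 4, where Gli1 reached 11.3 CPM and Hhip 7.89 CPM. Wild-type library 4 held 11.99 times the pooled Gli1 level of the other 7 libraries (95% counting interval 8.49 to 17.04) and 12.1 times their Hhip level (7.95 to 18.5). Neither gene passed the filter on low counts. Mutants differed from wild type by -0.23 log2 CPM for Gli1 (exact permutation p = 0.8286) and by -0.03 for Hhip (exact permutation p = 0.971). Both differences turned positive without wild-type library 4, at 0.77 for Gli1 (exact permutation p = 0.4) and 0.98 for Hhip (exact permutation p = 0.286), where the smallest p the design allows is 0.0286. That turn is in part set by the choice of the library, which was picked for its high levels. In the authors' deposited table the false discovery rates were 0.0885 for Gli1, 0.253 for Hhip and 0.0823 for Ptch1. With no filter on low counts, where edgeR called 1.11% of 24606 genes, the adjusted p was 0.631 for Shh, 0.764 for Gli1 and 0.784 for Hhip.

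**Figure D1:**
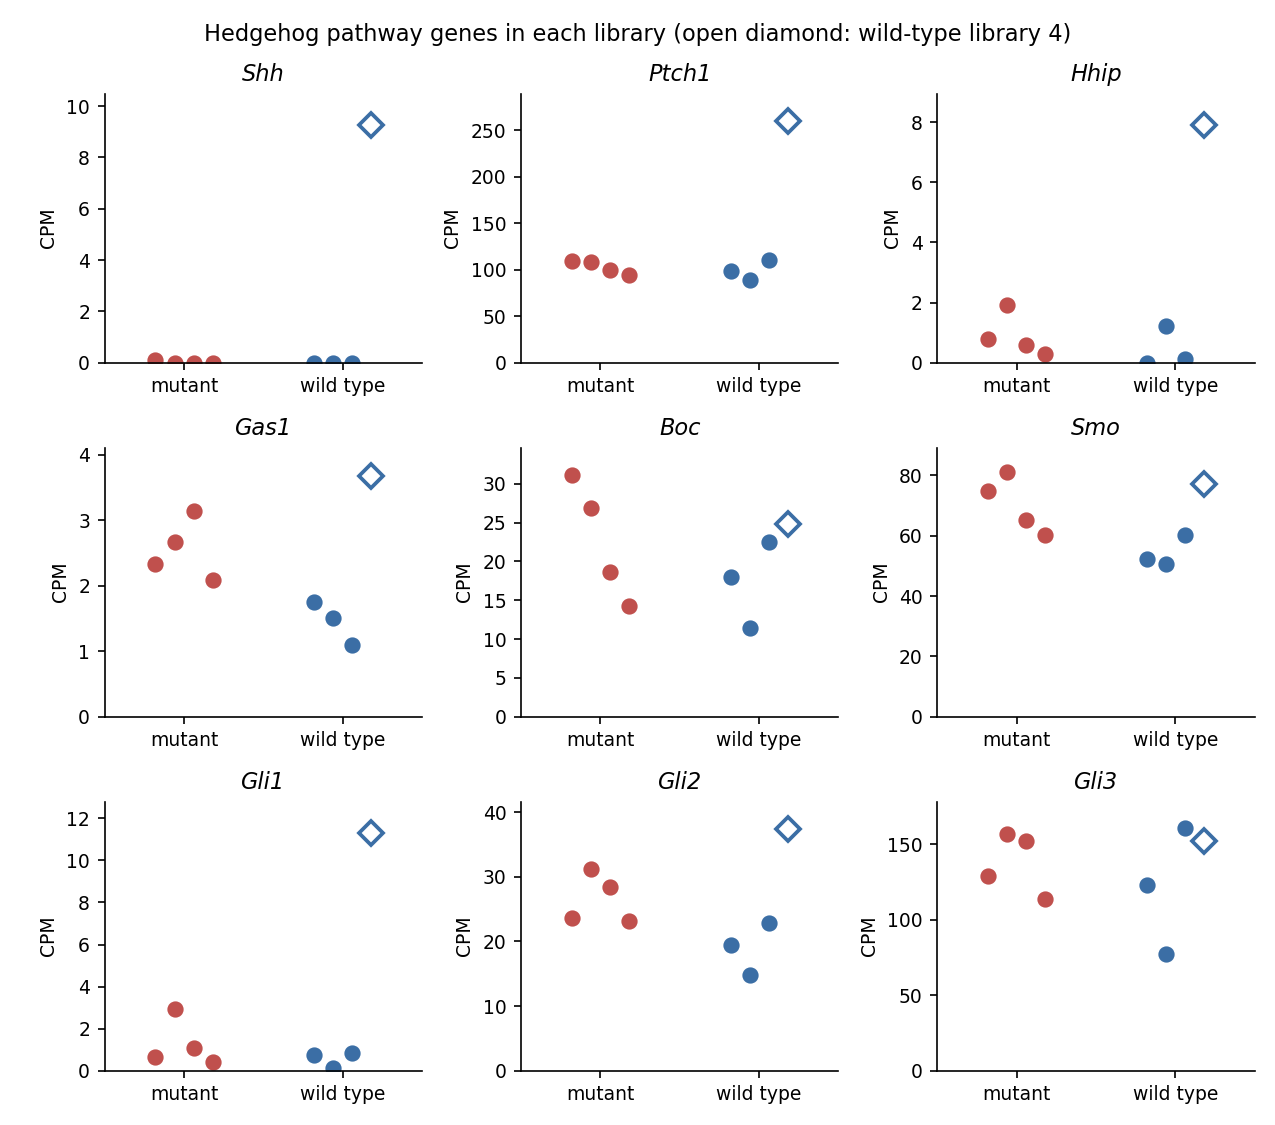
Level of each Hedgehog gene in CPM (vertical axes, each from 0) in the 4 mutant libraries (red) and 4 wild-type libraries (blue), with 1 point per library in order of replicate number and wild-type library 4 as an open diamond. Wild-type library 4 stands above all others for Shh, Ptch1, Gli1 and Hhip, while for Smo, Gli3 and Boc it lies among the other libraries.

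The start regions of Ptch1 and Hhip are shown because these pathway readouts were high together in wild-type library 4. The 150 bases before the start are from RefSeq on GRCm38.p6, given 5′ to 3′ on the gene's minus strand, at chr13:63565736-63565885 for Ptch1 (78.7% G or C) and chr8:80058009-80058158 for Hhip (70.7% G or C).
Ptch1: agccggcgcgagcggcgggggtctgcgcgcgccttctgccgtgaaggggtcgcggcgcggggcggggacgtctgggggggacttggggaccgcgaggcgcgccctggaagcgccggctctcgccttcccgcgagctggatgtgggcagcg
Hhip: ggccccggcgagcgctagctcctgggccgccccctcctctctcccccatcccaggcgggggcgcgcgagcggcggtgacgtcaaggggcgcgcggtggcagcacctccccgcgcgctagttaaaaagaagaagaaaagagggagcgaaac
The RefSeq promoter table, which covers 250 bases before to 50 after each start, held 6 of the 9 members (Ptch1, Smo, Gli2, Gli3, Hhip and Gas1). The consensus GLI site GACCACCCA, read on both strands as GACCACCCA or TGGGTGGTC, was in 0 of the 6 windows, and 0.253% of all 32851 promoters of that length held it. Its core CCACCCA, which lies within the longer motif, was in 0 of the 6 windows and in 9.30% of all promoters. At such shares a count of 0 among 6 is near the background, so nothing is read from either count. Sequence outside these windows was not searched. No capitals are used in the sequences because neither motif was found in these windows.

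Among the co-receptors, Boc encodes an immunoglobulin-domain membrane protein that binds ligand (chromosome 16, 44485158 to 44559010, minus strand, mm9). It stood at 31.1, 26.9, 18.6 and 14.2 CPM in the mutants and at 17.9, 11.4, 22.5 and 24.8 CPM in the wild types. The groups overlapped, mutants were high on lane 1 and low on lane 2, and the wild-type libraries ran the other way. The log2 fold change over all 8 libraries was 0.24 ± 0.28 (SE), with an interval of -0.37 to 0.85 (edgeR adjusted p = 0.815). Single libraries moved it widely, to 0.05 without mutant library 1, 0.06 without wild-type library 2 and 0.41 without mutant library 4. Gas1, which encodes a membrane-anchored co-receptor (chromosome 13, 60277148 to 60278447, minus strand, mm9), had only 21, 21, 32 and 21 reads in mutants and 19, 11, 8 and 27 reads in wild type. Its highest level, 3.67 CPM, was in wild-type library 4, and the 4 mutant libraries, at 2.09 to 3.13 CPM, lay above wild-type libraries 1 to 3, at 1.10 to 1.76 CPM. The Gas1 log2 fold change was 0.35 ± 0.37 (SE), with an interval of -0.45 to 1.15 (edgeR adjusted p = 0.795).

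Smo, the signal transducer (chromosome 6, 29685694 to 29711365, plus strand, mm9), stood at 74.9, 81.1, 65.2 and 60.1 CPM in the mutants and at 52.4, 50.7, 60.2 and 77.0 CPM in the wild types. Wild-type library 4 was again the highest of its group, but below mutant library 2. The mean was 70.3 ± 9.46 CPM in mutants and 60.1 ± 12.01 CPM in wild type (SD, n = 4 each). The log2 fold change of 0.23 ± 0.14 (SE) had an interval of -0.08 to 0.53 (edgeR adjusted p = 0.607). A further annotated gene on the same strand, AC069469.1 with 82 reads in the series, overlaps Smo, so reads of the pair could be shared between them.

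Gli2, the main activator of the pathway in many mouse tissues (chromosome 1, 120730638 to 120950196, minus strand, mm9), stood at 23.6, 31.2, 28.4 and 23.1 CPM in the mutants and at 19.4, 14.8, 22.8 and 37.4 CPM in the wild types. The 4 mutant libraries lay between wild-type library 4 and the 3 other wild-type libraries. Its log2 fold change was 0.17 ± 0.24 (SE), with an interval of -0.36 to 0.70 (edgeR adjusted p = 0.849), and it was 0.08 without wild-type library 1 and 0.002 without wild-type library 2. Gli3, which acts largely as the repressor in the absence of ligand (chromosome 13, 15555068 to 15821859, plus strand, mm9), stood at 128.9, 156.9, 152.3 and 114.0 CPM in the mutants and at 122.9, 77.5, 160.9 and 152.3 CPM in the wild types. The groups overlapped and wild-type library 2 was the lowest of the 8. The Gli3 log2 fold change was 0.10 ± 0.20 (SE), with an interval of -0.35 to 0.56 (edgeR adjusted p = 0.903), and it was -0.08 without wild-type library 2.

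The comparison was repeated without wild-type library 4, since its share of each result could then be read directly. Of the 15105 genes then tested, 225 were called, or 1.49%, and 181 of these were also called with all 8 libraries. Again 0 of the 6 tested members were called, and at such a rate a count of 0 among 6 is near the background. The nearest were Smo with a log2 fold change of 0.37 (interval 0.10 to 0.63, edgeR adjusted p = 0.211), Gli2 with 0.48 (0.11 to 0.86, adjusted p = 0.251) and Gas1 with 0.79 (0.05 to 1.52, adjusted p = 0.345). Gli2 and Gas1 then had no overlap between the groups, 2 of the 6 tested genes, beside 11.6% of all tested genes. Wild-type library 4 was picked after its high levels of members were seen, and it was the highest wild-type library for Smo, Gli2 and Gas1. Leaving it out raises these values in part by that choice, so nothing is read from them. With all 8 libraries 0 of the 6 genes were without overlap, beside 6.71% of all tested genes.

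The direction of 5 of the 6 tested genes differed between lanes. On lane 1 alone, with 2 libraries against 2, edgeR called 5.63% of 14849 genes and 2 members, Smo (log2 fold change 0.59, adjusted p = 0.0239) and Boc (0.97, adjusted p = 0.0343), both higher in mutants. On lane 2 alone their log2 fold changes were -0.14 for Smo (adjusted p = 0.903) and -0.53 for Boc (adjusted p = 0.406), and Gli2 and Gli3 were also below 0, each at -0.24. The difference between lanes, tested as an interaction over all genes with edgeR, was -1.49 for Boc (adjusted p = 0.0658) and -0.73 for Smo (adjusted p = 0.111). It passed for 0 of the 6 members, beside 0.00678% of all 14757 genes (1 gene), so nothing is read from that count. Wild-type library 2, on lane 1, had the lowest level of Smo, Ptch1, Gli1, Gli2, Gli3 and Boc among all 8 libraries. It also had the lowest summed level of 5 mesenchyme markers, 115.2 CPM beside 213.0 to 350.8 CPM elsewhere, and the highest sum of 6 cardiomyocyte markers, 17879 CPM beside 11179 to 15956 CPM elsewhere. In bulk tissue, fewer cells of a type and less RNA per cell cannot be told apart, and the part of this library's makeup in the lane 1 calls was not tested.

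**Figure D2:**
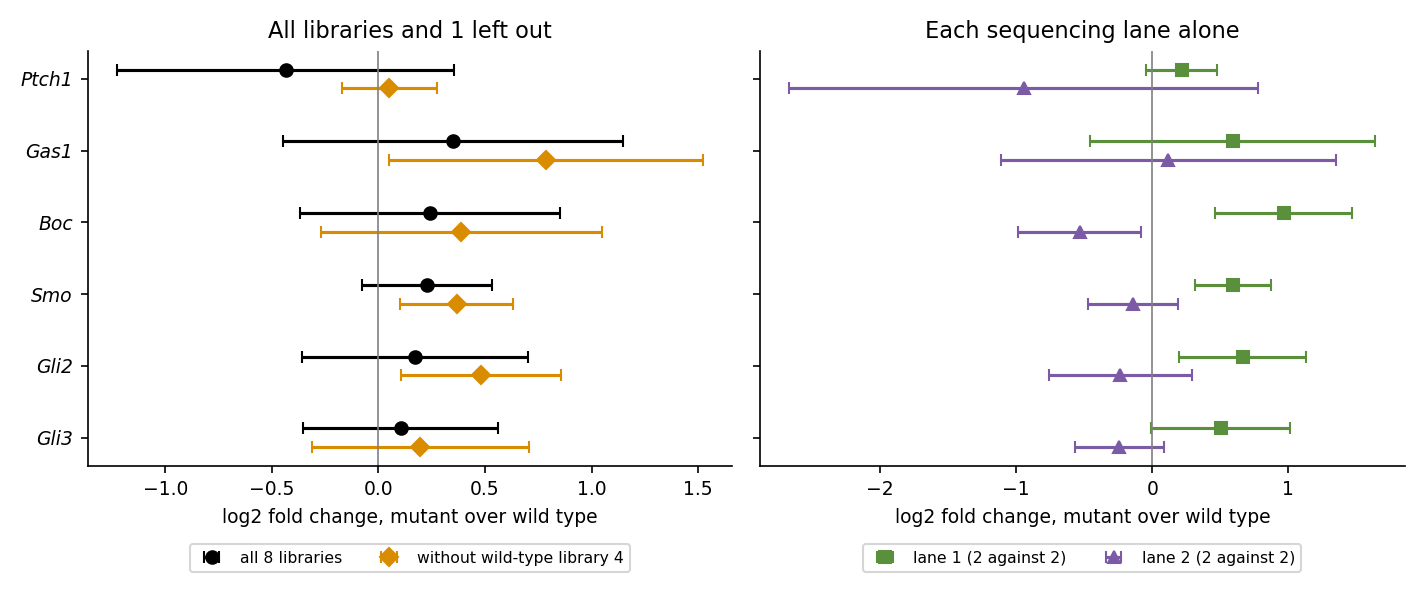
Log2 fold change of mutant over wild type (horizontal axes) for the 6 tested Hedgehog genes, with 95% intervals from edgeR, over all 8 libraries and without wild-type library 4 (left) and for each sequencing lane alone (right). Every interval over all 8 libraries spans 0, the Ptch1 interval narrows around 0 without wild-type library 4, and Smo and Boc lie above 0 on lane 1 and below 0 on lane 2.

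Wild-type library 4 was then described against all genes, as 1 library and with no test. Of the 9 members 6 (Shh, Ptch1, Gli1, Gli2, Hhip and Gas1) had their highest level there, beside 14.7% of 19873 genes with at least 10 reads. Of the 9 members 4 (Shh, Ptch1, Gli1 and Hhip) were more than 1 log2 unit above every other library there, beside 0.82% of those genes. Among the listed Hedgehog targets, 6 of the 17 with at least 10 reads were so raised: Foxf1a (32 reads beside 0 to 4 in any other library), Foxf2 (33 beside 0 to 6), Osr1 (22 beside 0 to 12), Foxd2 (7 beside 0 to 2), Pax9 (32 beside 0 to 10) and Hsd11b2 (190 beside 34 to 66). The minimum of 10 reads includes those of wild-type library 4, for members, targets and all genes alike. Shh, Foxf1a and Foxd2 reach it only through that library, so these shares only describe the library. Foxf1a and Foxf2 encode forkhead factors of the mesenchyme that lies next to endoderm, and Pax9 a factor of the pharyngeal pouches.

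The same library held reads of epithelial and endodermal genes that the others largely lacked. The 8 endoderm markers summed to 147.7 CPM in wild-type library 4 and to 49.7 to 62.6 CPM in the other 7 libraries. Of the 8, 6 were more than 1 log2 unit above every other library there. These were Foxa1 (61 reads beside 0 to 1), Foxa2 (7 beside 0 to 2), Sox2 (18 beside 0 to 10), Nkx2-1 (73 beside 1 to 11), Epcam (113 beside 1 to 5) and Cdh1 (271 beside 0 to 27). Of these, Foxa1 and Foxa2 reach the minimum of 10 summed reads only through wild-type library 4. Foxa1 and Foxa2 encode forkhead factors of gut endoderm, Nkx2-1 a factor of lung and thyroid precursors, and Epcam and Cdh1 epithelial adhesion proteins. The keratin genes Krt8 and Krt18 were spread over all libraries and were not raised by that amount. The notochord markers T and Noto had 0 or 1 read and Foxj1 0 to 3 reads in every library, too few to compare libraries. Neural crest markers summed to 17.1 CPM there and to 3.02 to 9.33 CPM elsewhere, but 13.7 CPM of this was Tfap2a alone. Dlx5 was also highest there, with 12 reads beside 1 to 7 elsewhere. Sox10, a defining crest gene, had 13 reads there beside 2 to 17 elsewhere, Tfap2b had 0 beside 0 to 5, and Foxd3 was at 0 in every library. Cardiomyocyte markers summed to 11179 CPM there, the lowest of the 8 libraries, with mutant library 2 next at 11241 CPM. Tnnt2 was also lowest there, at 1198 CPM beside 1666 to 2050 CPM elsewhere. Actc1 and Myh6 were lowest there too, while Nkx2-5, Myl7 and Myl4 were not. The part of this tissue makeup in the levels of Shh, Ptch1, Gli1 and Hhip was not tested.

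**Figure D3:**
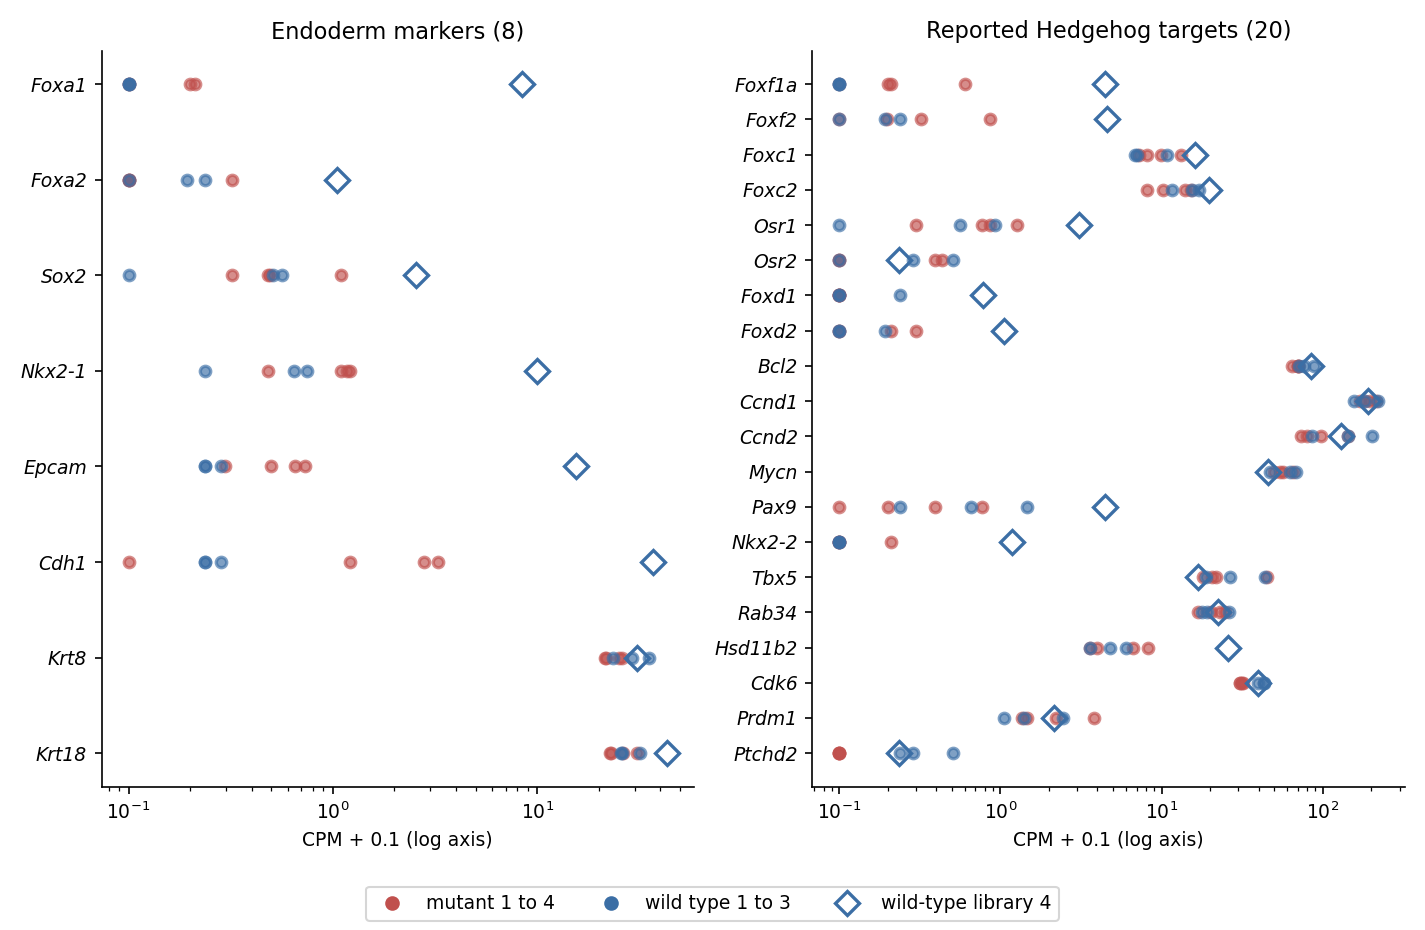
Levels of 8 endoderm markers (left) and 20 listed Hedgehog targets (right) in every library, as CPM plus 0.1 on a log axis, with mutant libraries in red, wild-type libraries 1 to 3 in blue and wild-type library 4 as an open diamond. In wild-type library 4, Foxa1, Nkx2-1, Epcam and Cdh1 stand far to the right of the other libraries, as do Foxf1a, Foxf2, Pax9 and Hsd11b2, while Ccnd1, Bcl2 and Rab34 do not.

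**Figure D4:**
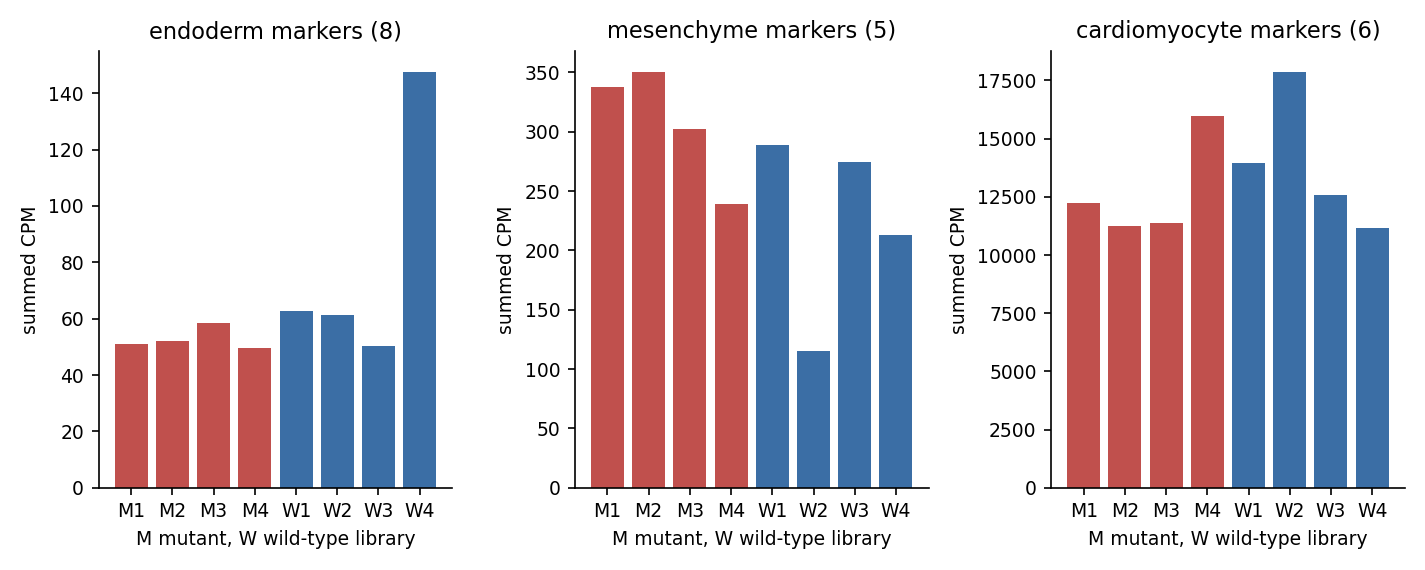
Summed CPM (bars, from 0) of endoderm, mesenchyme and cardiomyocyte markers in each of the 8 libraries, mutants (M) in red and wild type (W) in blue. Wild-type library 4 has an endoderm sum of 147.7 CPM above all others, and wild-type library 2 has the lowest mesenchyme sum, 115.2 CPM, and the highest cardiomyocyte sum, 17879 CPM.

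To order the members by abundance, CPM was divided by exon length in kilobases. Medians over the 8 libraries were 16.6 CPM per kb for Smo, 14.7 for Gli3, 13.9 for Ptch1, 4.61 for Boc, 3.48 for Gli2, 1.77 for Gas1, 0.210 for Gli1, 0.139 for Hhip and 0 for Shh. Among the members, Ptch1, Smo and Gli3 were thus the abundant ones, and Shh, Gli1 and Hhip the scarce ones. This order does not cover ligand as a whole, since the ligand gene Dhh, which is not a member, stood at 15.5 to 35.04 CPM. In exact paired sign-flip permutation tests of neighbours on the log2 scale, adjusted by Benjamini-Hochberg over the 8 neighbour pairs, Smo was above Gli3 in 7 of 8 libraries (adjusted p = 0.0313) and Ptch1 above Boc in 8 of 8 (adjusted p = 0.0313). Gli3 and Ptch1 did not differ beyond their spread (exact permutation, adjusted p = 0.438), nor did Boc and Gli2 (adjusted p = 0.0833) or Gli1 and Hhip (adjusted p = 0.205). Neighbours were set by the medians of these same libraries, so the p-values are not those of pairs chosen beforehand.

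**Figure D5:**
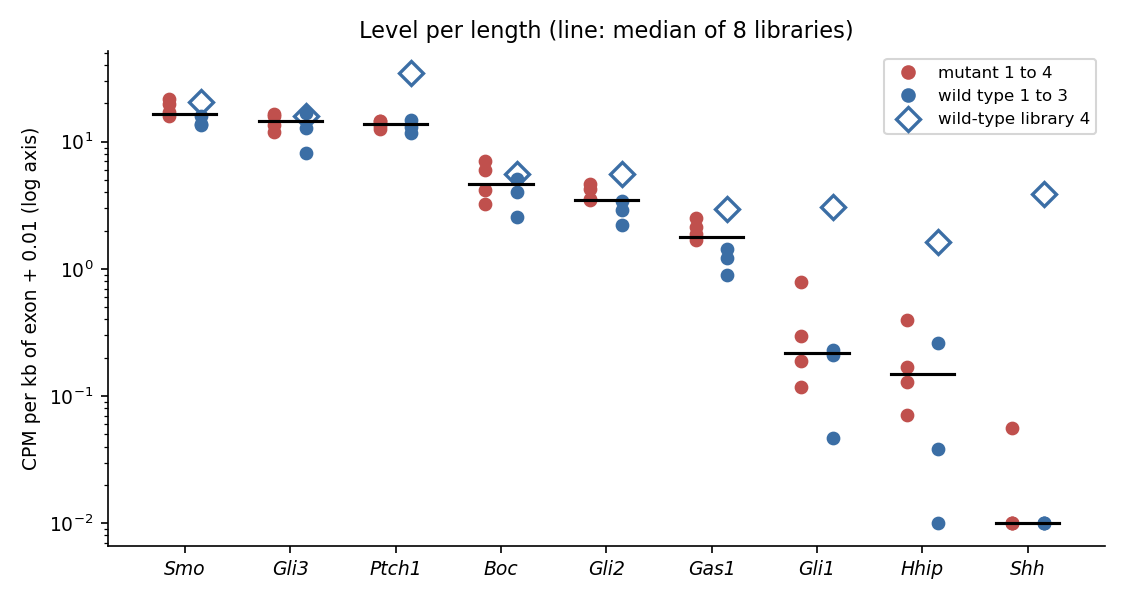
Level of each Hedgehog gene per kb of exon, as CPM per kb plus 0.01 on a log axis, in each of the 8 libraries, mutants in red, wild type in blue and wild-type library 4 as an open diamond, with the median of all libraries as a line. Smo, Gli3 and Ptch1 have medians between 13.9 and 16.6 CPM per kb, while Gli1, Hhip and Shh are near 0 except in wild-type library 4.

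Members were also compared with one another across libraries. Of 36 pairs, 0 passed by Pearson's r or by Spearman's rho in exact permutation tests adjusted by Benjamini-Hochberg over the pairs, the smallest adjusted p being 0.0628. Over all 36 pairs r ran from 0.103 to 0.977 with 8 libraries and from -0.152 to 0.9498 without wild-type library 4. The 6 pairs of Shh, Ptch1, Gli1 and Hhip had r between 0.704 and 0.977, and between -0.061 and 0.714 without that library. Other pairs were as high or rose without it, such as Gli1 with Gli2 (0.898, then 0.871), Smo with Gli2 (0.861, then 0.845) and Ptch1 with Boc (0.465, then 0.9498). Among 13643 tested genes with a mean log2 CPM above 1, those most like Gli1 over the 8 libraries were Abcg1 (r = 0.978), a cholesterol exporter gene, Ptprf (0.970), a receptor phosphatase gene, and Sema4g (0.963), a semaphorin gene. Those most like Ptch1 were Fam125b (r = 0.948), Amot (0.941) and CT025642.2 (0.941). Without wild-type library 4 these values were 0.957, 0.914 and 0.890 for the genes like Gli1 and 0.813, 0.717 and 0.882 for those like Ptch1, given as descriptions of libraries that share their depth and makeup.

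The wider pathway was described from lists of 82 other genes, of which 80 were in the table and 68 were tested. Among these 68, 0 were higher and 1 was lower in mutants, which is 1.47% beside the 1.5% called over all tested genes and so near the background. That gene was Scube1, which encodes a secreted protein of a family that in zebrafish and mammals takes part in the release of Hedgehog ligand. Scube1 stood at 11.96, 13.1, 10.1 and 12.7 CPM in the mutants and at 23.5, 32.0, 28.1 and 30.6 CPM in the wild types, with no overlap between the groups. It fell by 1.26 on the log2 scale (SE 0.144, edgeR adjusted p = 0.000775), and it was still called without wild-type library 4.

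The lists otherwise stayed without a called gene. Of the 5 tested genes of ligands and their release, with a median log2 fold change of 0.04, Dhh, the Desert hedgehog ligand of endothelium and other cells, was at 0.43 (edgeR adjusted p = 0.356). Dhh stood at 24.5 to 35.04 CPM in mutants and 15.5 to 26.1 CPM in wild type. The third ligand gene, Ihh, had at most 3 reads in a library, and Disp1 was listed at 0 in all 8. Disp1 was placed on chromosome 1_random and not on chromosome 1 itself, so its zeros are not read as absence of the transcript. Of the 6 tested reception genes, with a median of 0.12, the co-receptor gene Cdon was at 0.46 (edgeR adjusted p = 0.168) and the glypican gene Gpc3 at 0.24 (adjusted p = 0.445).

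Of the 22 tested genes of transduction, which include kinases and regulators of Smoothened and the Gli factors, the median was 0.03. Those with the smallest p were Efcab7, a gene of a ciliary complex that acts with Smoothened, at 0.42 (edgeR adjusted p = 0.348) and Csnk1d, a casein kinase gene, at 0.19 (adjusted p = 0.412). Of the 24 tested primary cilium genes, also with a median of 0.03, the intraflagellar transport genes Ift80 and Ift74 came first, at 0.26 (edgeR adjusted p = 0.382) and 0.25 (adjusted p = 0.545). Of the 11 tested targets, with a median of -0.08, the cell cycle kinase gene Cdk6 was nearest to a call at -0.40 (edgeR adjusted p = 0.0566). Its levels were 30.7 to 31.8 CPM in mutants and 39.3 to 43.4 CPM in wild type, without overlap. Bcl2, a survival gene, was at -0.22 (edgeR adjusted p = 0.379).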

How the data were processed

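RNA of 4 mutant and 4 wild-type mouse outflow tract samples was isolated with a Qiagen kit and prepared with a NuGEN kit, per the labels' protocols. The authors deposited whole-number raw counts for each gene in each library. Per the submitters' processing notes, the aligner was TopHat2 2.0.4 and the build mm9. The sources used here do not name the counting tool, the annotation release or whether strand was used, so reads of overlapping genes could not be told apart, such as Gli1 and Arhgap9 (31 reads) or Shh and AC121843.1 (1 read), which lie on opposite strands. Per the file headers, the authors also computed a pooled FPKM for either group, a log2 ratio that they modified, and a score equal to minus 10 log10 of the false discovery rate. The false discovery rates printed were computed back from that score.

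The test was edgeR 4.0.16 (R 4.3.3), with filterByExpr at a minimum count of 10, TMM scaling and the robust quasi-likelihood test, two-sided, with group alone in the design. The Benjamini-Hochberg adjustment ran over all 14757 genes tested, with a threshold of 0.05. Standard errors were derived as the absolute log2 fold change over the root of the F statistic. CPM used TMM-scaled library sizes, and log2 CPM a prior count of 2. The 3 genes that did not pass the filter were compared by exact permutation tests on log2 CPM over 70 arrangements, whose smallest two-sided p is 0.0286. For Shh, ties at 0 reads put that p out of reach. Counting intervals are exact (Clopper-Pearson) at 95%. Exon length came from the table. Chi-square statistics between replicates of a group, per degree of freedom, were 5.77 to 20.7, above sampling noise, so none was a copy. In a simulation of the mutant comparison over 14757 genes, the test recovered 38% of 50 genes changed 1.5-fold, 80% of 50 changed 2-fold, 90% of 50 changed 4-fold and 94% of 50 changed 8-fold, while 11 of 162 calls (6.79%) were false. Simulated counts varied independently between libraries, with no lane effect and no library of outlying makeup. Changed genes were drawn from all tested genes, so these rates are not those of the Hedgehog members.

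Alternatives covered scaling, the filter, DESeq2 1.42.0, limma-voom (limma 3.58.1), a replicate block, lane, and leaving out libraries. Named genes were all 9 members, every called gene of each other Hedgehog list with the 2 genes of smallest p, and the 3 genes most like Gli1 and Ptch1. Single markers, and targets named for wild-type library 4, were named after their values were seen. The members and lists were chosen with earlier results of these data known. Tables and figures used Python 3.11.15, pandas 2.3.3, scipy 1.17.1 and matplotlib 3.10.9.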

Additional observations from a re-analysis of the deposited data

Results flagged for a closer look

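Within each group of 4 libraries, the gap between an extreme library and its nearest neighbour was set against the group's range for each of the 9 Hedgehog genes, 18 groups in all. Shh passed Dixon's 95% critical value in both groups, on the log2 CPM scale with a prior count of 2. In wild type, library 4 stood at 3.25 from its 68 reads while the other 3 libraries had 0 reads. In mutants, library 1 stood at -1.56 from 1 read while the other 3 had 0 reads. Where 3 libraries are tied at 0 the gap equals the range and any read in the fourth passes, so the statistic was 1 in both groups by construction, the usual chance rate of 5% does not apply, and nothing is read from it.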

How the results depend on the processing

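The count of 222 called genes became 430 with DESeq2, 76 with the replicate block, 836 on lane 1 alone, 119 on lane 2 alone, 95 without the 2 libraries low in Y-linked reads, and 110 to 231 when each library was left out in turn, with 112, 136, 110 and 145 without mutant libraries 1, 2 and 3 and wild-type library 1. Scaling by library size alone gave 109 higher and 122 lower calls, beside 83 and 139. Hedgehog members called were 0 under each alternative run except lane 1 alone, which gave 2, and were 0 when each library was left out. The other Hedgehog genes called, 1 in all, became 2 with DESeq2 (2.82% of those tested, beside 2.52% of all genes), 5 on lane 1 alone (7.35% beside 5.63%) and 2 without the libraries highest in chamber genes, mutant library 4 and wild-type library 2 (2.94% beside 1.99%), each near the share of all genes. Correlations gave no sign that replicate numbers pair the libraries: same-numbered libraries had correlations of -0.287 to 0.222, and 2 of 8 correlated best with their own number. So few correlations cannot exclude a pairing. Under the replicate block 0 members were called.

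Some members changed direction. Values of Shh, Gli1 and Hhip here are differences in mean log2 CPM, and those of the other members are edgeR log2 fold changes. On lane 1 alone the values were 0.28 for Shh, 0.22 for Ptch1, 1.49 for Gli1 and 1.34 for Hhip, and Smo and Boc passed the threshold at 0.59 and 0.97. The Shh value on that lane came from 1 read, and Gli1 and Hhip each had an exact permutation p of 0.667. On lane 2 alone the values were -0.14 for Smo, -0.24 for Gli2, -0.24 for Gli3 and -0.53 for Boc. Leaving out each library in turn gave -1.65 to 0.14 for Shh, -0.61 to 0.051 for Ptch1, -0.88 to 0.77 for Gli1, -0.080 to 0.23 for Gli3 and -0.74 to 0.98 for Hhip. Without a change of direction it gave 0.15 to 0.37 for Smo, 0.0017 to 0.48 for Gli2, 0.15 to 0.79 for Gas1 and 0.047 to 0.41 for Boc. The 2 libraries low in Y-linked reads include wild-type library 4, and without them the values were 0 for Shh, 0.019 for Ptch1, 0.93 for Gli1 and 0.97 for Hhip. Hhip was 0.45 without the 2 libraries highest in chamber genes and 0.0026 with library size alone. The cause was not tested beyond these values. limma-voom gave no value for Shh, Gli1 and Hhip, and DESeq2 gave no p for Shh and Gli1. Depth limits Shh, Gli1, Hhip and Gas1, which had at most 32 reads in any library but wild-type library 4.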
